A study of Mus musculus with 26 samples.

Results

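Collagen genes other than those of type IV were followed through a chemical reprogramming experiment, which uses small molecules to bring mouse fibroblasts to pluripotency. The group was defined by name: every row of the deposited table whose symbol has the form of a collagen chain (Col, a type number, a, a chain number), leaving out the 5 type IV rows. It holds 36 of the 16718 genes in the table. By the known structure of their proteins, 11 of the 36 are fibrillar collagens, 5 form beaded filaments, 1 forms anchoring fibrils, 3 form networks, 8 are fibril-associated collagens with interrupted helices (FACIT), 4 span the cell membrane, 2 are multiplexins and 2 were left without a class.

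RNA was sequenced in 26 mouse libraries in 5 groups. Mouse embryonic fibroblasts (MEF), the starting cells on day 0, gave 1 library. The full course, with all chemicals, was sampled in 1 library each on days 6, 12, 18, 22, 30, 36 and 40. With BrdU left out, the same 7 days gave 1 library each, and with Chir left out, days 6, 12, 18, 22 and 30 did. Established chemically induced pluripotent stem cells (CiPSC) gave 6 libraries. BrdU (bromodeoxyuridine) is a thymidine analogue that is built into DNA, and Chir is an inhibitor of the kinase GSK3 that is used to activate Wnt signalling. All courses received the other chemicals, whose names the labels do not give. Mouse strain, age and genotype are not given in the labels used here, nor whether the days of a course came from one culture or the CiPSC libraries from separate lines. Within a course a day has 1 library, and the days stood in for repeats. Successive days of a culture are not independent, and p-values over days can therefore be too small.

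Collagens are triple helices of 3 alpha chains, and each gene encodes 1 chain. Fibrillar collagens, above all types I, III and V, make the tensile fibrils of connective tissue and are the chief matrix product of fibroblasts. FACIT collagens such as type XII lie on those fibrils, type VI forms beaded filaments around cells, type VII anchors epithelia to the tissue beneath, and types VIII and X form hexagonal networks. Multiplexins sit at basement membranes, and the membrane-spanning types are surface proteins that can be shed. Chains are hydroxylated and folded in the endoplasmic reticulum, trimmed by propeptidases after secretion and cross-linked by lysyl oxidases.

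The deposited values are not counts. Every library holds nearly the same set of values, with totals between 4143561 and 4162600, and the 100 highest positions carry identical values in all 26 libraries. In each library 10 genes share the maximum of 21988, the next 10 share 11324 to 11346, and the 10 after them 8303 to 8336. For the most abundant collagens a value is therefore a rank in coarse steps, a gene at 21988 cannot show a further rise, and equal values in different libraries do not show equal amounts. Col1a1 reached the maximum in 4 libraries, Col1a2 and Col12a1 in 6 each and Col3a1 in 8. Depth is unknown. Differences are given as log2 of (value + 1) with the standard error (SE) from limma, a linear model fitted over all genes, and calls were made where the p adjusted by Benjamini-Hochberg over all genes tested was under 0.05. In bulk libraries fewer cells of a type and less RNA per cell cannot be told apart.

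The stretches before the starts of 5 members are shown, because these genes came from several classes and differed between courses. They are the 250 bases before the RefSeq start on build GRCm38.p6, 5′ to 3′ on the gene's strand, and none of them overlaps a GENCODE exon. Col3a1 is chr1:45311288-45311537 on the plus strand, Col5a1 chr2:27886175-27886424 plus, Col6a3 chr1:90843972-90844221 minus, Col7a1 chr9:108953336-108953585 plus and Col15a1 chr4:47207762-47208011 plus, where the GENCODE start of Col15a1 lies 150 bases beyond the last base shown. Capitals mark the CCAAT motif, the GC box GGGCGG, the TATA motif TATAAA or the AP-1 motif TGANTCA, each on either strand.
Col3a1: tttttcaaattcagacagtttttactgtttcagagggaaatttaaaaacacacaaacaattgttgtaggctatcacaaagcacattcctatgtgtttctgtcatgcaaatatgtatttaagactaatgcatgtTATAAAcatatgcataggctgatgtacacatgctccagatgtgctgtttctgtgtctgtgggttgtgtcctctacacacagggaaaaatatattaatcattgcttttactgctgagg
Col5a1: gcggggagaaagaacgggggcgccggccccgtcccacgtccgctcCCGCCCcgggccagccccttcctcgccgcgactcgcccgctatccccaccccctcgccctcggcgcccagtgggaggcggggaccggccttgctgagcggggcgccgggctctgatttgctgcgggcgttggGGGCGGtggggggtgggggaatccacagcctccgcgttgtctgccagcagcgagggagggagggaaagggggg
Col6a3: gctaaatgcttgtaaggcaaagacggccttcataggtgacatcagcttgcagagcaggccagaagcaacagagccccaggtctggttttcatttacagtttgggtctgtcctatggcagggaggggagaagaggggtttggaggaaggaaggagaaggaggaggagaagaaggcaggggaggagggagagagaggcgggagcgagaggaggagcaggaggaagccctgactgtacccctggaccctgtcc
Col7a1: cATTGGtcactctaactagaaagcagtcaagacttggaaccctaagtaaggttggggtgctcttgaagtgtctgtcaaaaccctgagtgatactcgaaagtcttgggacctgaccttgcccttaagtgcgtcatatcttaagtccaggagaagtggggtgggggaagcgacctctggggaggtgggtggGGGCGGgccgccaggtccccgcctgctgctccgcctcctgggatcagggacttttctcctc
Col15a1: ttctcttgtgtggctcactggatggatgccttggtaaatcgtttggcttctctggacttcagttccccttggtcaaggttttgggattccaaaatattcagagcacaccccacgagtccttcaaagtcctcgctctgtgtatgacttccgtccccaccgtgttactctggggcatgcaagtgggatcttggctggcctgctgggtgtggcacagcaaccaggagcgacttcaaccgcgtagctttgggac

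The shown stretches differ in composition, from 35.2% G and C before Col3a1 to 76.4% before Col5a1. A match is a description of letters and not a site. Col3a1 holds 1 TATAAA, Col5a1 holds 2 GGGCGG, Col7a1 holds 1 CCAAT and 1 GGGCGG, and Col6a3 and Col15a1 hold none of the 4 motifs. RefSeq stretches were matched for 28 of the 36 members; Col1a1, Col2a1, Col5a2, Col9a3, Col12a1, Col14a1, Col22a1 and Col26a1 were not matched. GGGCGG stood in 17 of the 28 and in 32.9% of 27025 stretches of the same length, CCAAT in 9 and in 34.5%, TATAAA in 5 and in 13.0%, and TGANTCA in 1 (Col6a1) and in 6.87%.

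Collagen RNA was high in MEF and low in CiPSC, and the courses lay between. Summed over the members and divided by exon length, the deposited value was 12724 per kilobase in MEF. It ran from 1038 to 8183 in the full course (median 3229), from 5404 to 11975 without BrdU (median 8814), from 1287 to 3941 without Chir (median 2024) and from 273 to 479 in CiPSC (median 340). All CiPSC libraries lay below every other library, and the range of the full course overlapped with those of both other courses. On day 6 the sum was 8183 in the full course, 8650 without BrdU and 3941 without Chir. By day 22 these sums were 1038, 5404 and 1287. For genes at the maximum these sums hold the shared step, which can lie above or below the true amount.

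The make-up by class also differed, on the same scale per kilobase. Fibrillar chains made up 80.1% of the member sum in MEF, 48.1% to 72.5% in the full course, 53.7% to 80.2% without BrdU and 56.1% to 76.1% without Chir, but 13.1% to 26.9% in CiPSC. Multiplexins made up 42.5% to 53.5% in CiPSC against 0.585% in MEF. FACIT chains made up 24.5% to 30.3% in CiPSC, where Col9a2 replaced Col12a1 as the leading chain of the class, and 6.80% in MEF. Network chains held 5.08% of the sum in MEF and at most 1.42% in any other library.

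**Figure D1:**
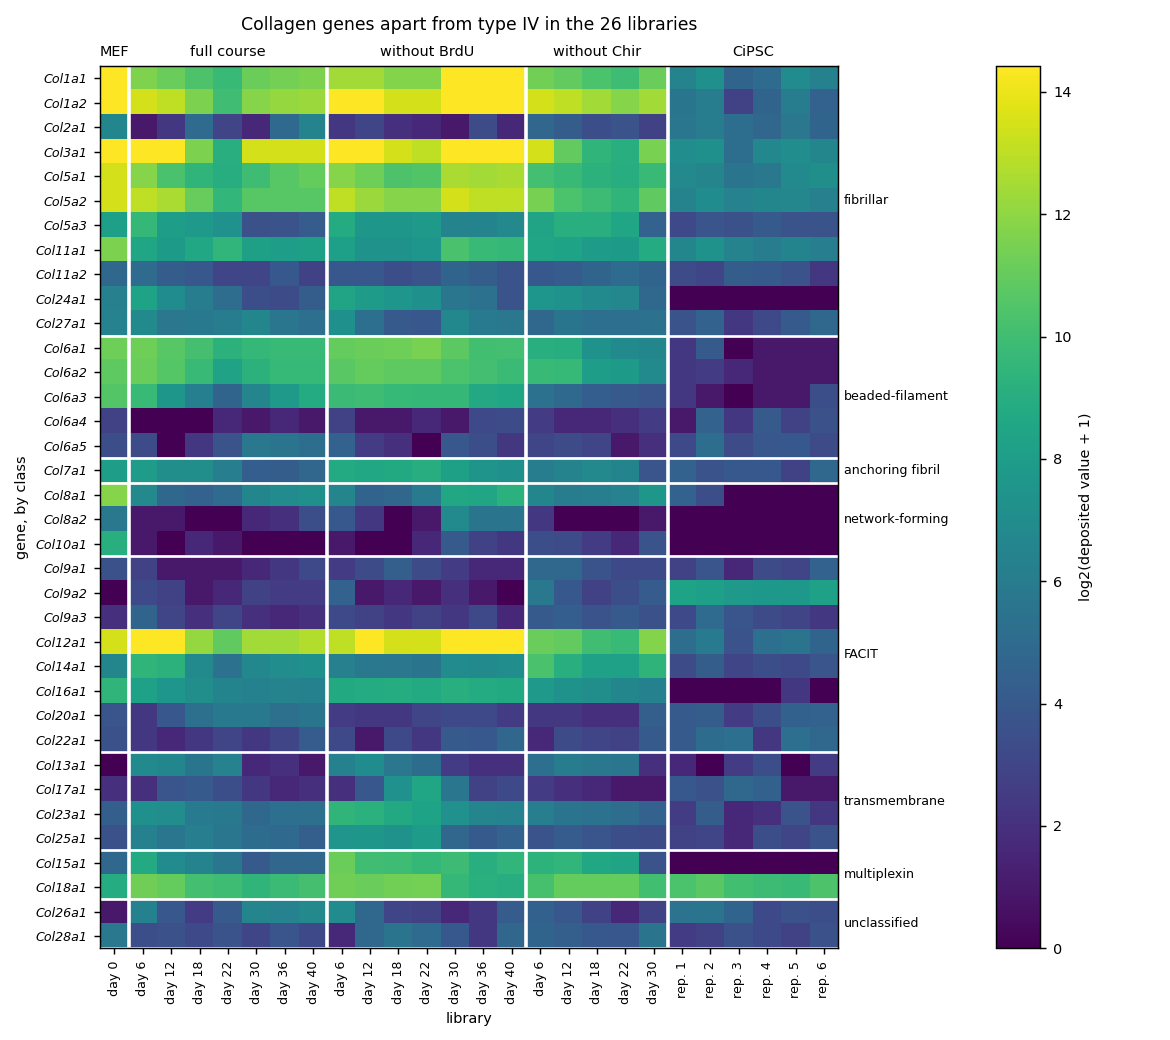
Heat map of the 36 genes (rows, by class) in the 26 libraries (columns, by group), coloured by log2(deposited value + 1). Type I, III and XII chains are at or near the table maximum in MEF and on days 30 to 40 without BrdU, while CiPSC libraries are low except for Col18a1 and Col9a2.

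Without BrdU, 13 of the 36 collagen genes were higher than in the full course over 7 matched days, 1 was lower and 22 did not pass the test. Over all genes tested, 21.1% were called higher and 21.5% lower in this comparison. The median member difference was 0.91 and the median of all genes 0.016. When each library was centred on 9 housekeeping genes instead, the median of all genes moved by 0.285. The share of all calls that were higher went from 49.4% to 68.6%. Before centring, 1 of these 9 genes was itself called higher without BrdU and 3 lower, with a median of -0.301. No called member changed direction under centring or any other setting run, in any comparison. The genes called higher came from every class except the one without a class: 5 of 11 fibrillar, 2 of 5 beaded-filament, 2 of 4 membrane-spanning, 1 of 8 FACIT, 1 of 3 network, 1 of 2 multiplexin and the anchoring fibril gene. Class medians were 1.22 for fibrillar, 0.78 for beaded-filament, 1.17 for network, 1.40 for membrane-spanning, 2.07 for multiplexin and 0.27 for FACIT genes.

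Both chains of type I, the main fibril collagen, were higher. Col1a1 (chr11:94936224-94953042, plus strand) had a lowest, median and highest value of 886, 2331 and 3233 in the full course and of 3420, 5529 and 21988 without BrdU. The ranges did not overlap, and Col1a1 without BrdU was at the table maximum on days 30, 36 and 40, as in MEF. The difference was 2.05 ± 0.32 (SE, adjusted p = 0.0017), higher on 7 of 7 days. Col1a2 (chr6:4504814-4541544, plus), the partner chain, had values of 1030, 4516 and 11344 in the full course and of 11344, 21988 and 21988 without BrdU, touching at 11344. It was higher by 2.10 ± 0.29 (SE, adjusted p = 0.0011), on 7 of 7 days. In the libraries at the maximum the true differences cannot be read.

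Of the type V chains, which seed fibrils and limit their width, 2 of 3 were higher. Col5a1 (chr2:27886425-28039514, plus) had values of 506, 1239 and 3628 in the full course and of 1365, 3628 and 6078 without BrdU. The ranges overlapped, with equal values on day 6, and the difference was 1.34 ± 0.27 (adjusted p = 0.0046). Col5a2 (chr1:45374321-45503282, minus) had 742, 1656 and 8336 against 3644, 8336 and 11346, a difference of 1.47 ± 0.41 (adjusted p = 0.0177), higher on 5 of 7 days. Col24a1, a fibrillar chain known from bone, had 9, 34 and 332 against 12, 152 and 348 and was higher by 1.22 ± 0.36 (adjusted p = 0.0233). The third type V chain, Col5a3, was higher on 4 and lower on 3 of 7 days and did not pass (1.05 ± 0.51, adjusted p = 0.1255). The call of Col5a2 was lost without day 36 or 40, and that of Col24a1 without day 18, 22, 30 or 36.

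Col3a1 (chr1:45311538-45349706, plus), the partner of type I in elastic tissue, was at 518, 11346 and 21988 in the full course and at 8336, 21988 and 21988 without BrdU. It was at the maximum in both courses on days 6 and 12, so those days could show no difference. The difference of 1.25 ± 0.45 missed the threshold (adjusted p = 0.0506, 95% interval 0.23 to 2.27). Col12a1 (chr9:79598991-79718831, minus), the FACIT chain with the highest mean, behaved alike on this scale: 1915, 5522 and 21988 against 8303, 21988 and 21988, a difference of 1.17 ± 0.45 (adjusted p = 0.065). Col2a1, the cartilage fibril chain, stayed between 1 and 88 in all courses and did not pass the test.

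**Figure D2:**
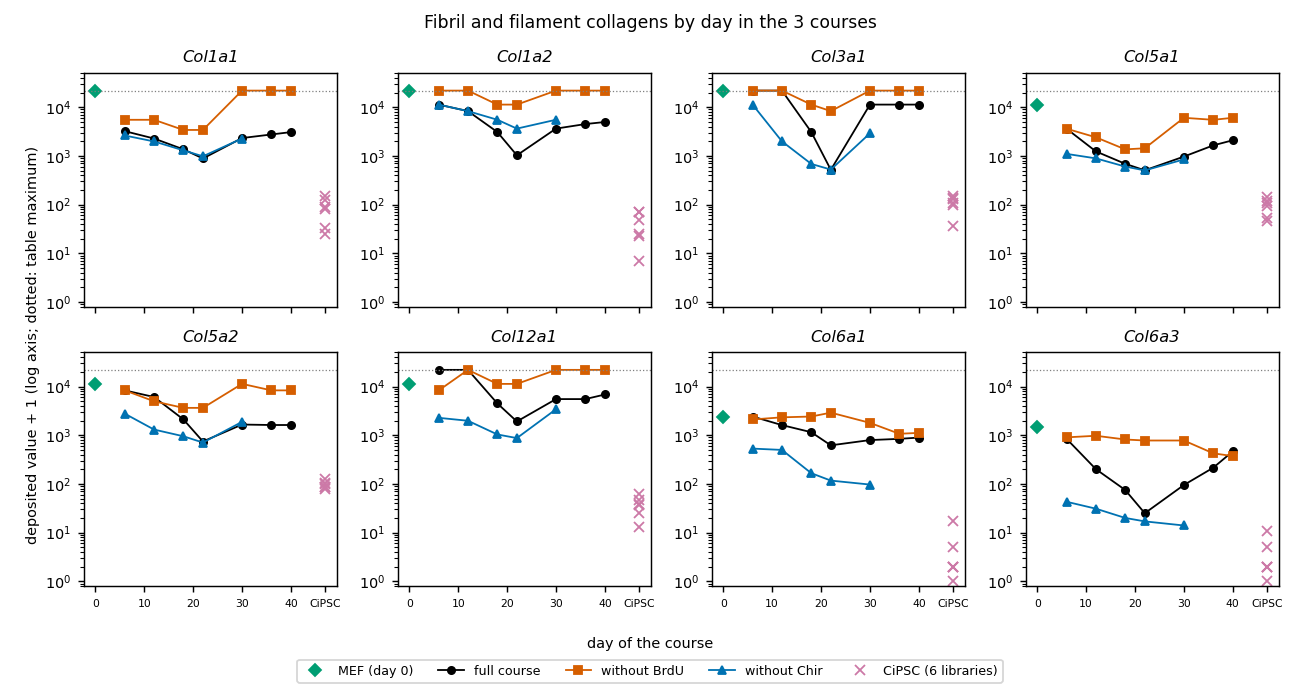
Deposited value + 1 (log axis) against day for 8 fibril and filament collagens, with MEF on day 0, the 3 courses as lines and the 6 CiPSC libraries at the right. The dotted line is the table maximum. Full-course values of Col1a1, Col1a2, Col3a1 and Col5a1 are lowest on day 22, and on every shared day Col6a1 and Col6a3 are lower without Chir than in the other courses.

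In the full course several abundant chains were lower on day 22 than before and after. Col3a1 was at 21988 on days 6 and 12, at 3102 on day 18, at 518 on day 22 and at 11346 on days 30, 36 and 40. Col1a1 stood at 3233 on day 6, at 886 on day 22 and at 3088 on day 40. Col12a1 was at 21988 on day 12, then at 1915 on day 22 and at 6860 on day 40. Each such value is 1 library, so the dip on day 22 has no replicate check.

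Of the type VI chains, which build the filament network around cells, 2 of 5 were called higher. Col6a3 (chr1:90765923-90843971, minus) was at 24, 200 and 843 in the full course and at 372, 778 and 974 without BrdU, higher by 2.07 ± 0.59 (adjusted p = 0.0204), a call lost without day 18 or 30. Col6a1 (chr10:76708792-76726168, minus) was at 619, 893 and 2419 against 1070, 2104 and 2908, higher by 0.78 ± 0.26 (adjusted p = 0.036), and this call was lost on leaving out any of 6 of the 7 days. Col6a2 (chr10:76595762-76623630, minus) differed by 0.75 ± 0.31 and did not pass (adjusted p = 0.0726). Col6a4 and Col6a5 were at most 53 in any library.

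The largest difference of the group was that of Col15a1 (chr4:47208161-47313167, plus), a multiplexin of the zone beneath basement membranes. It was at 28 in MEF, at 16, 50 and 448 in the full course and at 542, 964 and 2332 without BrdU. The ranges did not overlap, and the difference was 3.96 ± 0.36 (adjusted p = 3.45e-04). Col18a1 (chr10:77052178-77166548, minus), the other multiplexin and the source of endostatin, was at 682, 1102 and 2545 against 500, 2277 and 2760 and differed by 0.18 ± 0.31 (95% interval -0.51 to 0.87), which did not pass.

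Col7a1 (chr9:108953586-108984875, plus), the anchoring fibril chain, was at 18, 72 and 251 in the full course and at 148, 405 and 510 without BrdU, higher by 2.33 ± 0.34 (adjusted p = 0.0013). Col23a1 (chr11:51289920-51583918, plus), a membrane-spanning chain, was at 28, 57 and 150 against 82, 328 and 688, higher by 2.06 ± 0.22 (adjusted p = 5.42e-04). Both were higher on all 7 days. Col17a1, the membrane collagen of hemidesmosomes, was at 2 to 16 in the full course and reached 359 on day 22 without BrdU, against 3 on day 6 there, with a difference of 2.01 ± 0.62 (adjusted p = 0.0273) that was not called without day 18, 22 or 30. Col16a1, a FACIT chain, was at 79, 90 and 310 against 432, 460 and 524, ranges that did not overlap, and was higher by 1.91 ± 0.25 (adjusted p = 9.95e-04). Col8a2, a network chain, was at 0 to 10 in the full course and at 112 on day 30 without BrdU, with a difference of 2.31 ± 0.60 (adjusted p = 0.0142) on very low values.

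Col20a1, a FACIT chain, was the member called lower without BrdU. It was at 4, 39 and 56 in the full course and at 4, 5 and 8 without BrdU, a difference of -2.14 ± 0.42 (adjusted p = 0.0044). On day 6 the courses were at 4 and 5, and from day 12 the full course was above. Of the 14 calls in this comparison, 8 held under every alternative setting in which the gene was tested: Col1a1, Col1a2, Col5a1, Col7a1, Col15a1, Col16a1, Col20a1 and Col23a1.

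**Figure D3:**
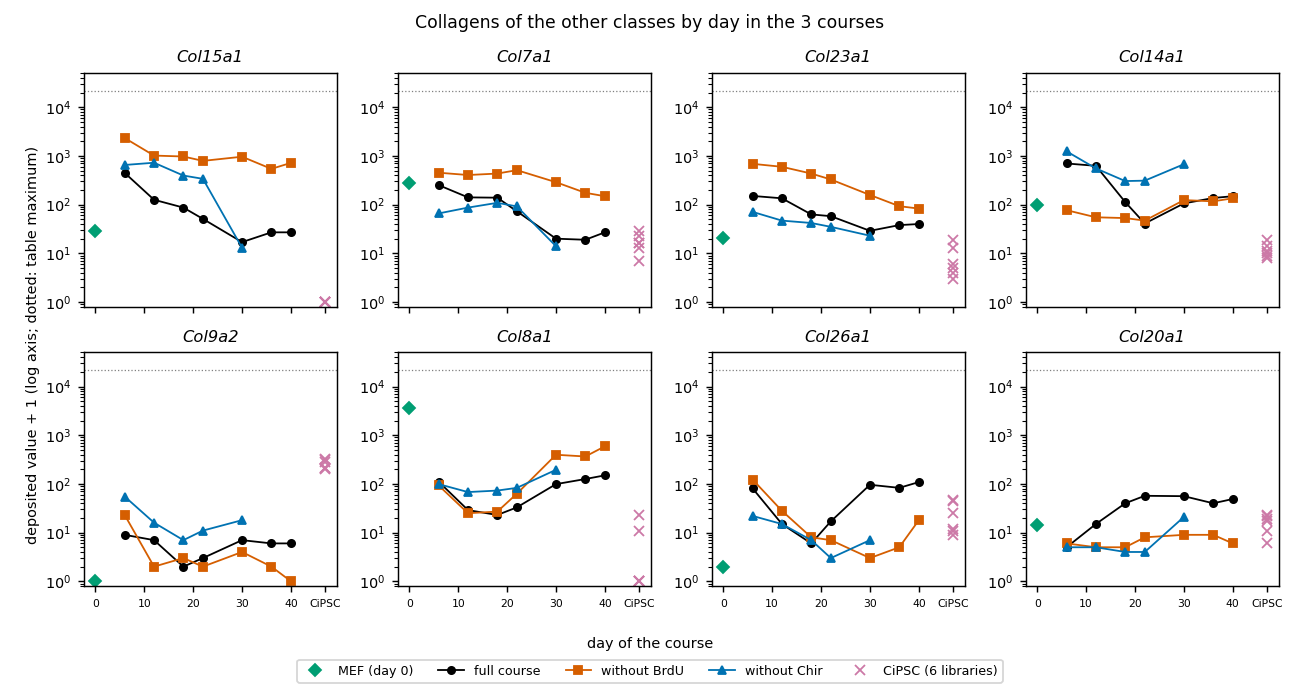
Deposited value + 1 (log axis) against day for 8 collagens of other classes, drawn as in the plot of fibril collagens. Col15a1 without BrdU lies above the full course on all 7 days, Col14a1 is at 304 or more throughout the course without Chir, and Col9a2 is at 204 or more only in CiPSC.

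Without Chir, the collagen genes moved in both directions against the full course over 5 matched days. Of 35 genes tested, 6 were called higher, 8 lower and 21 did not pass; over all genes tested 13.5% were called higher and 12.9% lower. The median member difference was -0.14, against 0.008 for all genes. Housekeeping centring moved all genes by -0.14 and the share of calls that were higher from 51.2% to 40.2%. Among 5 beaded-filament genes 3 were lower and 1 higher, network genes were higher in 2 of 2 tested, 3 FACIT genes of 8 were higher and 2 lower, membrane-spanning genes were lower in 2 of 4, and fibrillar genes were lower in 1 of 11. This comparison rested on few days: leaving out day 18 left 25 genes called in the whole table, and leaving out day 22 left 226. Of the 14 member calls, only that of Col6a1 was kept without day 18, and only 4 without day 22.

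Col6a1 was at 530, 498, 165, 116 and 96 on days 6 to 30 without Chir, all below the full course's lowest value of 619. The difference was -2.42 ± 0.21 (adjusted p = 0.0046). Col6a3 was at 42, 30, 19, 16 and 13, lower than the full course on 5 of 5 days, by -2.44 ± 0.48 (adjusted p = 0.017). Col6a2 was at 867, 804, 275, 228 and 116, also lower on 5 of 5 days, by -1.38 ± 0.27 (adjusted p = 0.0164). The chains of the type VI heterotrimer were thus low together in this course. Col6a4, at 2 to 5 against 0 to 2 on the matched days, was called higher by 1.55 ± 0.47 (adjusted p = 0.0466) on values near 0.

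Among fibril and fibril-associated chains, Col3a1 was at 11346, 1994, 685, 524 and 2918 without Chir, a difference of -1.71 ± 0.46 (adjusted p = 0.0335). Col12a1 was at 2276, 1980, 1036, 872 and 3414, below the full course on 5 of 5 days by -2.14 ± 0.44 (adjusted p = 0.0179). The type I chains did not follow: Col1a1 was at 2631, 1985, 1303, 983 and 2280, a difference of -0.09 ± 0.14 (95% interval -0.43 to 0.25), and Col1a2 differed by 0.65 ± 0.30 (95% interval -0.05 to 1.36). Col5a1 and Col5a2 differed by -0.52 and -0.97 and did not pass.

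Col14a1 (chr15:55307750-55520803, plus), a FACIT chain of dense connective tissue, was at 1244, 554, 304, 310 and 676 without Chir, against 700, 626, 112, 40 and 105 on the same days of the full course. It was higher by 1.54 ± 0.44 (adjusted p = 0.0403). The type IX chain Col9a2 (chr4:121039385-121055322, plus), known from cartilage fibrils, was at 54, 15, 6, 10 and 17 against 8, 6, 1, 2 and 6, higher by 1.77 ± 0.36 (adjusted p = 0.0177). Col9a1 was at 28, 28, 12, 8 and 8 against 6, 1, 1, 1 and 2, ranges that did not overlap, with a difference of 2.47 ± 0.44 (adjusted p = 0.014). These type IX values are low, and the cartilage markers in the table summed to 233 to 422 without Chir, 100 to 381 in the full course and 120 to 265 without BrdU. Sox9 weighs in these sums, at 283 on day 22 of the full course and 175 without Chir. Of 5 cartilage markers tested without Chir, 2 were called higher and 0 lower, where 13.5% and 12.9% of all genes were. Cnmd was at 22, 39, 46, 54 and 32 without Chir against 3, 8, 3, 4 and 3.

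Both network chains tested were called higher without Chir, and both calls were lost without day 12, 18, 22 or 30. The third, Col8a2, was at 4, 0, 0, 0 and 1 against 1, 1, 0, 0 and 2 and was too low to be tested. Col8a1 (chr16:57624258-57754737, minus), a chain of vessel and corneal matrix, was at 98, 67, 72, 82 and 194 against 110, 28, 22, 32 and 98, higher by 1.01 ± 0.29 (adjusted p = 0.0392). Col10a1, the chain of growth plate cartilage, was at 10, 9, 5, 2 and 12 against 1, 0, 2, 1 and 0, higher by 2.21 ± 0.58 (adjusted p = 0.0323). Neither course approached MEF, where Col8a1 was at 3627 and Col10a1 at 535.

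Of the 4 membrane-spanning chains 2 were lower, and Col13a1 (-0.43) and Col17a1 (-1.50) did not pass. Col25a1, a neuronal and muscle surface collagen, was at 12, 17, 13, 10 and 9 without Chir against 80, 50, 70, 50 and 33, ranges that did not overlap, with a difference of -2.09 ± 0.28 (adjusted p = 0.0093). Col23a1 was at 70, 46, 41, 34 and 22 against 150, 134, 62, 57 and 28, lower by -0.85 ± 0.24 (adjusted p = 0.0374). Col20a1 was lower by -2.03 ± 0.58 (adjusted p = 0.041), at 3 or 4 on days 6 to 22 and at 20 on day 30.

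**Figure D4:**
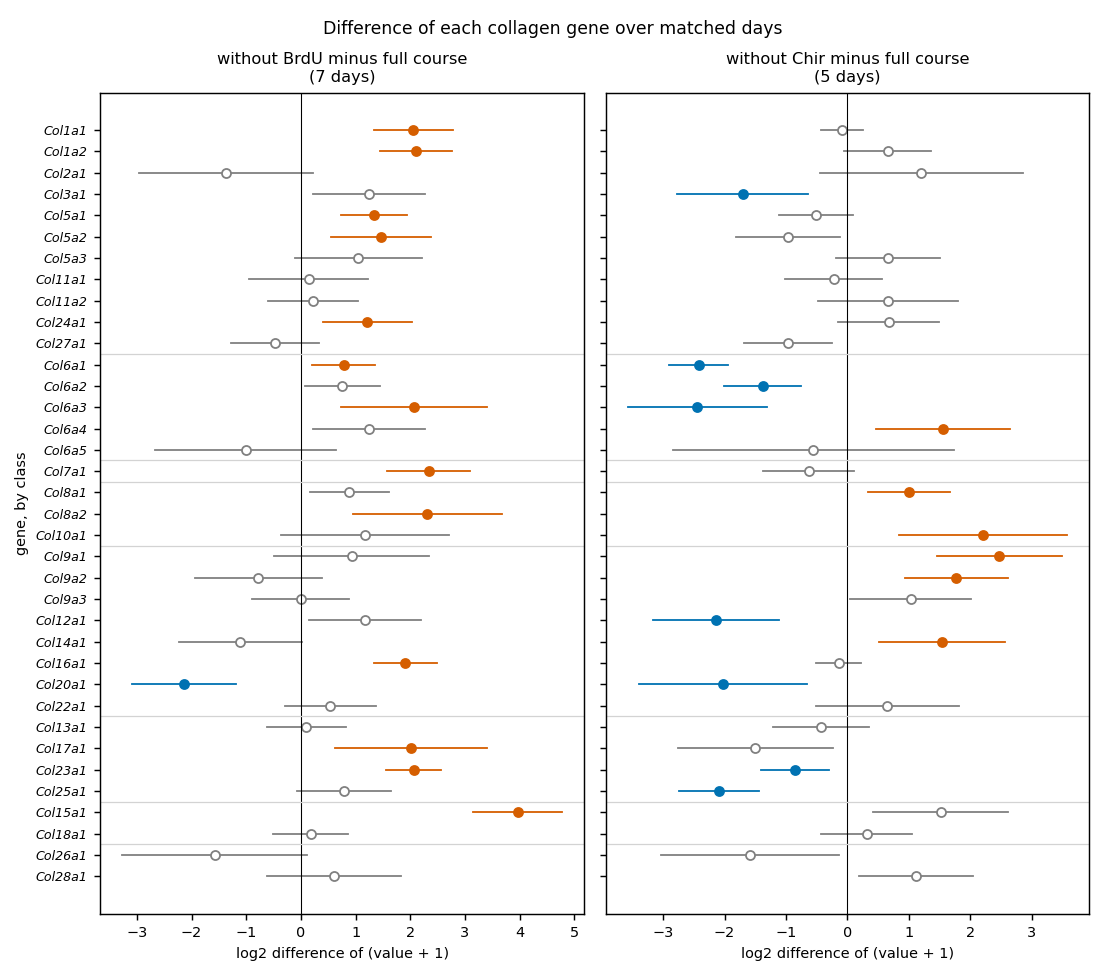
Log2 difference of (value + 1) from the full course with its 95% interval for each gene, without BrdU (left, 7 days) and without Chir (right, 5 days). Filled points passed the test (orange higher, blue lower) and open grey points did not; 13 genes are orange on the left and 6 on the right, where 8 are blue. Both panels share full-course libraries.

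The 2 omissions were also compared with each other over the 5 shared days. Without Chir, 4 of 36 members were higher than without BrdU, 15 were lower and 17 did not pass, where 16.9% of all genes were called higher and 15.2% lower. The member median was -0.55 and that of all genes 0.005, which housekeeping centring moved by -0.295 (share of calls higher from 52.7% to 27.2%). Col6a3 had the largest difference, at 42, 30, 19, 16 and 13 without Chir against 903, 974, 816, 778 and 778 without BrdU, or -5.21 ± 0.21 (adjusted p = 5.99e-05). Col25a1 differed by -3.35 ± 0.41, Col6a1 by -3.38 ± 0.41, Col23a1 by -3.27 ± 0.16, Col3a1 by -3.07 ± 0.44 and Col12a1 by -3.03 ± 0.28. Col7a1 was lower by -2.77 ± 0.33, Col6a2 by -2.31 ± 0.37 and Col17a1 by -3.84 ± 1.09, a call lost without day 18, 22 or 30 and without a variance trend.

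Both type I chains and 2 of 3 type V chains were also lower without Chir than without BrdU, by -1.80 ± 0.31 for Col1a1, -1.40 ± 0.22 for Col1a2, -1.74 ± 0.24 for Col5a1 and -2.08 ± 0.17 for Col5a2. Col5a3 differed by 0.28 ± 0.49 and did not pass. Col16a1 was lower by -1.85 ± 0.24 and Col24a1 by -0.71 ± 0.12. In the other direction, Col14a1 was at 1244, 554, 304, 310 and 676 without Chir against 76, 54, 52, 46 and 123 without BrdU, higher by 3.01 ± 0.24 (adjusted p = 4.06e-04). Col9a2, Col2a1 and Col9a3 were higher by 2.02 ± 0.39, 1.81 ± 0.34 and 1.27 ± 0.28, on values of at most 54. The calls of Col24a1 and Col9a2 were lost without the day block, and that of Col9a3 without day 18. These 3 course comparisons share libraries in pairs, so their calls do not add to each other.

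For some collagen genes the difference without BrdU was not the same early and late. The difference on days 30 to 40 was tested against that on days 6 to 22: 6 members were called higher, 2 lower and 28 did not pass, where 7.02% of all genes were called higher and 6.58% lower. Housekeeping centring moved all genes by 0.441 (share of calls higher from 51.6% to 81.1%) and gave 10 members higher. Col5a3, a minor type V chain, was at 222 and 159 on days 18 and 22 of the full course and at 11, 12 and 17 on days 30 to 40, while without BrdU it was at 87 to 110 on the late days. Its difference from the full course was -0.24 early and 2.77 late, a change of 3.01 ± 0.29 (adjusted p = 0.0011). Col11a1, a cartilage-type fibril chain also present in mesenchyme, was at 1231, 838 and 764 late without BrdU against 294, 268 and 289, and its difference went from -1.03 to 1.70 (change 2.73 ± 0.38, adjusted p = 0.0043).

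Col1a1 went from a difference of 1.33 early to 3.02 late (change 1.69 ± 0.31), with the late libraries at the maximum. Col8a1 went from 0.17 to 1.84 (change 1.67 ± 0.34), Col15a1 from 3.21 to 4.97 (1.76 ± 0.44) and Col10a1 from -0.25 to 3.07 (3.32 ± 0.84), the latter on values of at most 16. Col26a1, a chain with no class here, was at 95, 82 and 108 late in the full course and at 2, 4 and 17 without BrdU, and its difference went from 0.16 to -3.88 (change -4.04 ± 0.72, adjusted p = 0.0103). Col25a1 went from 1.65 to -0.36 (change -2.01 ± 0.39). Calls of Col5a3 and Col11a1 held under every alternative, and those of Col15a1 and Col10a1 were each lost on leaving out day 12, 18, 30, 36 or 40. Col8a1 was not called without day 40, nor Col25a1 without day 36. Without the day block, Col1a1, Col8a1, Col15a1 and Col26a1 were not called.

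Over the full course, with MEF as day 0, 6 members fell with day and none rose, while 9.31% of all genes rose and 7.42% fell. The slopes per 10 days were -1.48 ± 0.25 for Col5a3, -1.06 ± 0.14 for Col7a1, -1.06 ± 0.23 for Col24a1, -0.78 ± 0.20 for Col5a2, -0.72 ± 0.12 for Col16a1 and -0.44 ± 0.11 for Col6a1. Col7a1, at 272 in MEF and 251 on day 6, was at 26 on day 40. Calls of Col16a1, Col7a1 and Col5a3 held without any of the libraries, while that of Col24a1 was lost without day 36, those of Col5a2 and Col6a1 were lost without MEF or days 6, 30 or 36, and that of Col5a2 also without day 12. The count of rising members was 0, with 1 at a pseudocount of 5 and with a mean of at least 10; at an unadjusted p under 0.05, 3 had rising and 9 falling slopes in limma. The median slope was -0.40 against 0.008 for all genes, which housekeeping centring moved by -0.122 (share of calls rising from 55.7% to 27.5%).

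Trends in the other courses were called for few genes of any kind. Without BrdU, Col6a3 fell by 0.42 per 10 days (SE 0.07, adjusted p = 0.0404), where 0.315% of all genes rose and 0.56% fell. The count of falling members there was 8 without MEF and 0 without day 6, 12, 18, 36 or 40. Without Chir, Col6a2 fell by 1.34 per 10 days (SE 0.11, adjusted p = 0.0321), where 0.1% of all genes rose and 0.1% fell, and this call was lost without day 6, 12, 18 or 22. No member was called rising in either course, and at an unadjusted p under 0.05 limma gave 0 rising in both, with 6 falling without BrdU and 12 without Chir. Housekeeping centring moved all genes by 0.041 and -0.103 in these courses (share of calls rising from 35.97% to 45.3% and from 50% to 23.5%).

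In CiPSC most collagen genes were low. Of 36 members, Col8a2, Col10a1, Col15a1 and Col24a1 were listed at 0 in all 6 libraries, and these have no fold. For the other 32, MEF was called higher in 16 and lower in 3, where 16.5% of all genes were called higher and 23.4% lower. Day 40 of the full course was called higher in 13 and lower in 1, against 10.2% and 14.2% of all genes, and day 40 without BrdU higher in 16 and lower in 3, against 17.3% and 23.7%. Each of these sets 1 library beside 6, with the spread taken from CiPSC alone and the lone library assumed to vary likewise, and all share the CiPSC libraries. Housekeeping centring moved all genes by 0.82, 0.308 and 0.88 in these comparisons, and the share of calls that were higher went from 41.3% to 73.4%, from 41.8% to 65.8% and from 42.2% to 74.0%.

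Col1a1, Col3a1, Col5a2 and Col12a1 were called higher in MEF and on day 40 than in CiPSC. Col5a2 had a lowest, median and highest value of 78, 92 and 128 in CiPSC, with 11346 in MEF and 1620 on day 40 of the full course, or 6.89 ± 0.26 and 4.08 ± 0.26 above CiPSC (adjusted p = 1.10e-06 and 2.33e-04). Col3a1 was at 36, 119 and 152, with differences of 7.76 ± 0.64 for MEF and 6.81 ± 0.64 for day 40. Col1a1 was at 24, 84 and 152 (8.30 ± 0.88 and 5.47 ± 0.88), and Col12a1 at 12, 37 and 62 (8.40 ± 0.68 and 7.68 ± 0.68). Type VI chains were nearly absent from CiPSC, with medians of 1 for Col6a1, 1.5 for Col6a2 and 1 for Col6a3, against 893, 804 and 465 on day 40 of the full course. Day 40 of the full course was called above CiPSC for all 7 of these chains.

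Col18a1 and Col9a2 were the exceptions. Col18a1 was at 1212 ± 312 in CiPSC (SD, n = 6), or 173 per exon kilobase, the highest per-length level of the group there. Its value was 492 in MEF and 1136 on day 40 of the full course, a difference from CiPSC of -1.26 ± 0.33 for MEF (adjusted p = 0.0157, but -0.44 and not called with housekeeping centring) and of -0.05 ± 0.33 for day 40 (95% interval -0.81 to 0.70). Col9a2 was at 258 ± 54.8 in CiPSC (SD, n = 6), or 83.4 per exon kilobase, and listed at 0 in MEF and on day 40 without BrdU. On day 40 of the full course it was at 5, or -5.41 ± 0.44 below CiPSC (adjusted p = 3.68e-04), so it was the member called lower on that day. Its type IX partners Col9a1 and Col9a3 had medians of 8 and 8.5 in CiPSC. Col26a1 was called lower in MEF (1 against a CiPSC median of 17.5), by -3.32 ± 1.04. That call was lost with housekeeping centring, at a pseudocount of 5 (difference -2.04) and without CiPSC replicate 1 or 3. Col2a1 was lower on day 40 without BrdU (2 against 43), by -3.76 ± 0.63 (adjusted p = 0.0017).

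Neighbouring collagen genes were read side by side. Col3a1 and Col5a2 lie 24.6 kilobases apart on chromosome 1 and are transcribed toward each other, and Col6a2 and Col6a1 lie 85.2 kilobases apart on chromosome 10 on the same strand, followed after 326 kilobases by Col18a1. Col6a1 and Col6a2 were both lower without Chir, while Col18a1 there was at 1178, 2102, 2102, 2034 and 1069 and differed from the full course by 0.31 ± 0.32, which did not pass. Col6a5 and Col6a4 lie 28.8 kilobases apart on chromosome 9, and both were at most 53.

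The list of genes for making, trimming, cross-linking and sensing collagen held 52 symbols. Some of these are older names of genes that were also listed under their current name, so there are fewer genes than symbols. Under these symbols 42 genes were tested without BrdU: 18 were higher, 7 lower and 17 did not pass. Of all genes tested, 21.1% were called higher and 21.5% lower. Propeptide processing genes were higher in 5 of 7, cross-linking genes in 3 of 5 and receptors in 5 of 8, while folding and modification genes were higher in 4 and lower in 5 of 18. Fkbp10, a chaperone that assists collagen folding, was at 190 to 474 in the full course and 832 to 1255 without BrdU, higher by 1.38 ± 0.15 (adjusted p = 6.00e-04). Mrc2, an uptake receptor for collagen, was higher by 2.02 ± 0.33 and Adamts14, a propeptidase, by 2.21 ± 0.36. P4ha2, a prolyl hydroxylase subunit, was lower by -1.69 ± 0.24, Plod2, a lysyl hydroxylase, by -2.64 ± 0.56 and Creb3l2, a factor for secretory capacity, by -0.92 ± 0.21. Plod2 rose in the full course from 466 on day 6 to 21988 on day 40, and stayed at 228 to 570 without BrdU.

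Without Chir, 6 of the 42 tested machinery genes were higher, 7 lower and 29 did not pass, near the background of 13.5% higher and 12.9% lower. P4ha3, another prolyl hydroxylase subunit, was higher by 1.58 ± 0.22, Pcolce2, an enhancer of propeptide removal, by 2.59 ± 0.44 and P3h3, a prolyl 3-hydroxylase family member, by 1.06 ± 0.20. Loxl2, a cross-linking oxidase, was lower by -1.48 ± 0.26, P4ha1 by -1.66 ± 0.39 and Plod1 by -1.16 ± 0.27. Over the full course 18 of 43 machinery genes fell and 3 rose, where 7.42% of all genes fell and 9.31% rose, among them 4 of 5 cross-linking genes and 5 of 7 propeptide processing genes that fell.

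The summed values of marker genes of other cell types are given beside the collagen values. The 10 fibroblast markers summed to 11105 in MEF, 4623 to 17165 in the full course, 18198 to 29135 without BrdU, 5122 to 10788 without Chir and 36 to 197 in CiPSC, where Twist2, Fap and Lum were at 0 in every library. Smooth muscle markers (4 of 4 in the table) summed to 27218 in MEF, 30 to 342 in the full course, 549 to 11635 without BrdU and 258 to 1416 without Chir. The fibroblast sum without BrdU did not overlap with the full course, but it was lower in MEF, where the collagen sum was highest. Single genes weigh in this sum. The matrix gene Dcn was at 11346 on day 40 without BrdU and at 1517 in MEF. Pdgfra was at 692 in MEF. On day 22 it was at 5536 in the full course, 4512 without BrdU and 530 without Chir. Without BrdU 8 of the 10 markers were called higher and 0 lower, where 21.1% of all genes were called higher and 21.5% lower. Thy1 was at 28, 14 and 24 on days 30 to 40 without BrdU. It was at 176, 269 and 255 on those days of the full course and at 2167 in MEF. The 10 markers of parietal and primitive endoderm summed to 23740 in MEF, 11643 to 82179 in the full course, 7875 to 28315 without BrdU, 10146 to 22033 without Chir and 910 to 1487 in CiPSC. Matrix genes weigh in that sum: without BrdU, Sparc was at 21988 on days 30 to 40, while the endoderm factor Gata4 was at 2 to 10 over the course. Macrophage markers summed to 3214 in MEF, 129 to 356 in the full course, 79 to 212 without BrdU, 386 to 448 without Chir and 26 to 60 in CiPSC. The part of these cell types in the collagen differences was not tested.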

How the data were processed

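Total RNA of 26 mouse libraries was extracted with TRIzol, made into TruSeq libraries and sequenced on a NextSeq 500, per the labels' protocols. Tools named in the submitters' processing notes are RSEM, Bowtie2 and bcl2fastq, with build mm10 and no versions or roles. The deposited values are treated as a score: the table is named for CPM, the unit the planned design assumed, but its whole numbers follow nearly 1 distribution in every library, as quantile-normalized values do; the step itself is not given in the sources used here. Counts cannot be recovered and depth is unknown, so a count test was not run.

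Members and lists were chosen with earlier results of these data known. Values were analysed as log2(value + 1) with limma 3.58.1 in R 4.3.3, with a variance trend, for genes whose mean was at least 1, two-sided, Benjamini-Hochberg adjusted over all genes tested. Course comparisons used day as a block. The fit without BrdU against the full course was checked on simulated data with independent noise in each library. That check cannot show how p-values behave when days are not independent. Full statistics are given for members called in a course comparison or trend, members at the table maximum, the member of each class with the highest mean, and the 3 machinery genes of smallest p in each direction in the comparisons with the full course; other members are given by count and range, or in contrast to these. Positions and exon lengths are from GENCODE M21 (mm10). RefSeq gave the sequences. Col6a6 and Col19a1 were not analysed here. Alternatives were other pseudocounts (0.5 and 5), no filter or a mean of at least 10, no variance trend, housekeeping centring, no day block, days 6 to 30 only, and leaving out each library or day.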

Additional observations from a re-analysis of the deposited data

Results flagged for a closer look

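Among the 6 CiPSC libraries, 5 of 32 members with any spread had 1 library standing apart from the rest by Dixon's test at the 95% level. Its chance rate of about 1 in 20 holds for normally distributed values. Many values here are small whole numbers, so the count cannot be set against that rate. A gene at 0 in every library but 1 is always flagged. The flagged libraries were the highest for Col6a1 (16, where the others were at 4 or less), Col6a5 (36), Col9a3 (32), Col11a1 (161) and Col16a1 (4, where the others were at 0). Replicate 2 held the first 4 and replicate 5 that of Col16a1.

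For 8 members the difference between the course without BrdU and the full course changed between days 6 to 22 and days 30 to 40, by a test of that change. On the log2 scale the change was 1.76 for Col15a1, 3.32 for Col10a1, 1.67 for Col8a1, 1.69 for Col1a1, 2.73 for Col11a1, 3.01 for Col5a3, -4.04 for Col26a1 and -2.01 for Col25a1. The mean difference changed sign for Col5a3, Col10a1, Col11a1, Col25a1 and Col26a1, and kept its sign for Col1a1, Col8a1 and Col15a1.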

How the results depend on the processing

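Of 4428 member results under alternatives, 4212 kept their direction and side of the threshold, 137 lost a call, 79 gained one and none reversed. With days 6 to 30 only, 3735 genes were called without BrdU in place of 6946. Without the day block, 5 members were lower without Chir in place of 8, and late against early gave 3 higher and 1 lower in place of 6 and 2. Housekeeping centring gave 10 higher members and 3362 genes late against early, 0 falling members without BrdU, 17 genes with a slope without Chir in place of 32, and 1 member lower in MEF than in CiPSC in place of 3. For full-course slopes, a pseudocount of 5 and a mean of at least 10 each gave 1 rising member in place of 0. Without a variance trend, 0 members fell without BrdU, and 0 members fell and 0 genes had a slope without Chir, where a pseudocount of 0.5 gave 9 genes.

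Leaving out single libraries or days gave these ranges. Without Chir against the full course, 0 to 8 members were higher, 1 to 8 lower and 25 to 4994 genes called. Between the omissions 2772 to 4783 genes were called, the fewest without day 18. Late against early gave 3 to 10 higher and 1 to 3 lower members and 713 to 2472 genes. Full-course slopes gave 0 to 1 rising and 3 to 7 falling members and 1377 to 2551 genes (8 members and 2862 genes without MEF). Slopes without BrdU gave 0 to 1 falling members and 0 to 173 genes, against 8 members and 1095 genes without MEF. Slopes without Chir gave 0 to 3 falling members and 0 to 142 genes; without MEF 113 genes were called. The course comparisons were paired by day, the block of the fits; the labels give the courses no shared replicate numbers. Depth is unknown, and the shared maximum limits what can be read for the 4 chains that reach it.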
